A study of Rattus rattus with 8 samples.

Results

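The genes described are 5 of the sodium-potassium ATPase, the pump that keeps sodium low and potassium high inside cells: the beta subunit genes Atp1b1, Atp1b2 and Atp1b3, and Fxyd1 and Fxyd5, which encode small membrane proteins that bind the pump. They were taken by gene symbol from a table of 30957 genes, and all 5 were among the 12983 genes with enough counts to be tested. They were chosen with the difference between 4n and 2n cells already known. Their values in that comparison are therefore given as a description, with no test.

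The pump is built from a catalytic alpha subunit, which splits ATP and binds cardiac glycosides such as digoxin, and a glycosylated beta subunit, without which the alpha subunit does not fold or reach the cell surface. A member of the FXYD family can join the pair and tune its affinity for ions. In heart muscle the best known is phospholemman, the product of Fxyd1, which restrains the pump until protein kinase A phosphorylates it. The sodium gradient that the pump maintains also drives calcium out through the sodium-calcium exchanger, so the pump bears on contraction.

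RNA sequencing was done on 8 libraries of neonatal rat cardiomyocyte cultures, 4 of 4n (tetraploid) and 4 of 2n (diploid) cells, described as coming from independent experiments. The rats were of the SD strain, 1 to 3 days old. Every culture, of both fractions, had been enriched by differential adherence and kept for 24 h with 0.2 mM AraC, which blocks DNA synthesis, and insulin, transferrin and selenium. Serum starvation followed, and then 1% oxygen for 48 h, so there was no normoxic group. The fractions were separated by DNA content, read from the dye Hoechst 33342 at 2 µg/mL, a measure that does not tell a tetraploid nucleus from a binucleated cell, a cell in G2 phase or a pair of attached 2n cells.

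Libraries held 14783521 to 21033772 counts. The 11 cardiomyocyte markers, among them Actc1, Myh6 and Tnnt2, summed to 4121 to 30317 CPM (counts scaled to library size) in 4n libraries, against 495 to 965 CPM in 2n libraries. None of these defining markers was at 0 in any library, and 11 of 11 passed as higher in 4n in edgeR, against 2.67% of all genes tested, with a median log2 fold change of 4.36. Myl7, with 7 to 26 counts in 2n libraries, had enough counts to be tested only through its 4n libraries. The count of 11 rests in part on that. With the replicate number as a block 10 of 11 passed, against 4.27% of all genes, and Myh6 did not (edgeR adjusted p = 0.0535). With limma-voom, or in edgeR without 4n replicate 4 or any 1 of the 2n replicates, 0 of 11 passed. The 8 fibroblast markers summed to 29527 to 51619 CPM in 4n and 44355 to 57772 CPM in 2n libraries. Most of this came from the collagen genes Col1a1 (means 22931 CPM in 4n, 28183 CPM in 2n) and Col3a1 (13325 and 18732.5 CPM). The fibroblast sum exceeded the cardiomyocyte sum in 3 of the 4 4n libraries and in every 2n library. All libraries are labelled as cardiomyocytes, but sums over lists of unlike genes do not compare numbers of cells. Of the 8, 0 were called in edgeR, and 2 were called lower with the block, against 0.608% of all genes. The 7 endothelial markers found summed to 77.7, 87.4, 95.6 and 420 CPM in 4n replicates 1 to 4. In 2n libraries they summed to 32.9 to 63.5 CPM, and the ranges did not overlap. None of the 7 was called in edgeR without the block. With it 5 of 7, Cdh5, Kdr, Tie1, Vwf and Emcn, were called higher, against 4.27% of all genes. Emcn, with 4 to 39 counts in 2n libraries, likewise had enough counts to be tested only through its 4n libraries. The count of 5 rests in part on that. In DESeq2 3 of 7 were called higher, against 860 of all 12983 genes tested. Egfl7 and Tek were not called with the block, and Tek went the other way, with a log2 fold change of -0.21 ± 0.18 (SE). The summed smooth muscle, macrophage, epicardial, erythroid and glial marker lists overlapped between the fractions. Mitochondrial genes took 3.71% of the counts in 4n replicate 1 and 24.1% to 25.9% in the other 4n libraries, against 2.87% to 3.82% in 2n libraries. In such bulk samples, fewer cells of a type and less RNA per cell cannot be told apart.

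Atp1b1 encodes beta1, the main beta subunit of heart muscle. It lies on chromosome 13 from 82737159 to 82758004 in the rat build Rnor_6.0. In 4n replicates 1 to 4 it stood at 162, 308, 788 and 403 CPM. In 2n replicates 1 to 4 it stood at 101, 105, 101 and 138 CPM. Every 4n library was above every 2n library. The 4n libraries spread 4.87-fold from the lowest to the highest, against 1.36-fold among the 2n libraries. The mean was 415 ± 268 CPM in 4n and 111 ± 17.6 CPM in 2n (n = 4 each, ± SD). The log2 fold change of 4n over 2n was 1.90 ± 0.41 (SE), a 3.73-fold difference. Within replicate numbers 1 to 4, the 4n library exceeded the 2n library by 0.68, 1.55, 2.96 and 1.55 on the log2 CPM scale. The end of the neighbouring gene Nme7 overlaps Atp1b1 by 185 bases. Nme7 had 109 to 259 counts per library, against 1660 to 11012 counts of Atp1b1.

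Atp1b3 encodes beta3, a beta subunit found in many tissues, and it lies on chromosome 8 from 104190032 to 104221342. It stood at 120, 154, 157 and 203 CPM in 4n replicates 1 to 4. The 2n replicates 1 to 4 had 102, 149, 148 and 175 CPM. The groups overlapped almost throughout, and in both fractions replicate 1 was the lowest and replicate 4 the highest. The log2 fold change was 0.14 ± 0.20 (SE), and within replicate numbers the 4n library was higher by 0.23, 0.04, 0.09 and 0.22 on the log2 CPM scale. The sign of this small difference depended on the scaling: with library sizes left unscaled the log2 fold change was -0.11, while the median of all genes was at -0.25 on that scale and at -0.01 in the scaled fit. In the fit that leaves the pairing out, the log2 fold change was -0.00086 without 4n replicate 4, with 2n replicate 4, the highest 2n library, kept. With the replicate number as a block and without both libraries of replicate 4 it was 0.12.

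Atp1b2 encodes beta2, known from glial cells, where it was first described as an adhesion molecule. On chromosome 10 from 56205625 to 56211891, it was the least abundant of the 5 genes, with 741 counts over all libraries. It stood at 3.17, 3.87, 8.01 and 15.0 CPM in 4n replicates 1 to 4. It stood in 2n replicates 1 to 4 at 3.66, 2.00, 1.43 and 8.47 CPM. Replicate 4 was the highest in both fractions, and the groups overlapped. The log2 fold change was 0.95 ± 0.64 (SE). By replicate number the difference was -0.20, 0.92, 2.39 and 0.82 on the log2 CPM scale, so the 4n library was the lower of the pair in replicate 1. Single libraries moved the value widely: the log2 fold change was 0.36 without 4n replicate 4 and 1.67 without 2n replicate 4. With the replicate number as a block and without both of these libraries it was 1.05. The glial and neuronal marker list, of which 7 genes were found, summed to 70.2 to 117 CPM in 4n and 93.5 to 128 CPM in 2n libraries, ranges that overlap.

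**Figure D1:**
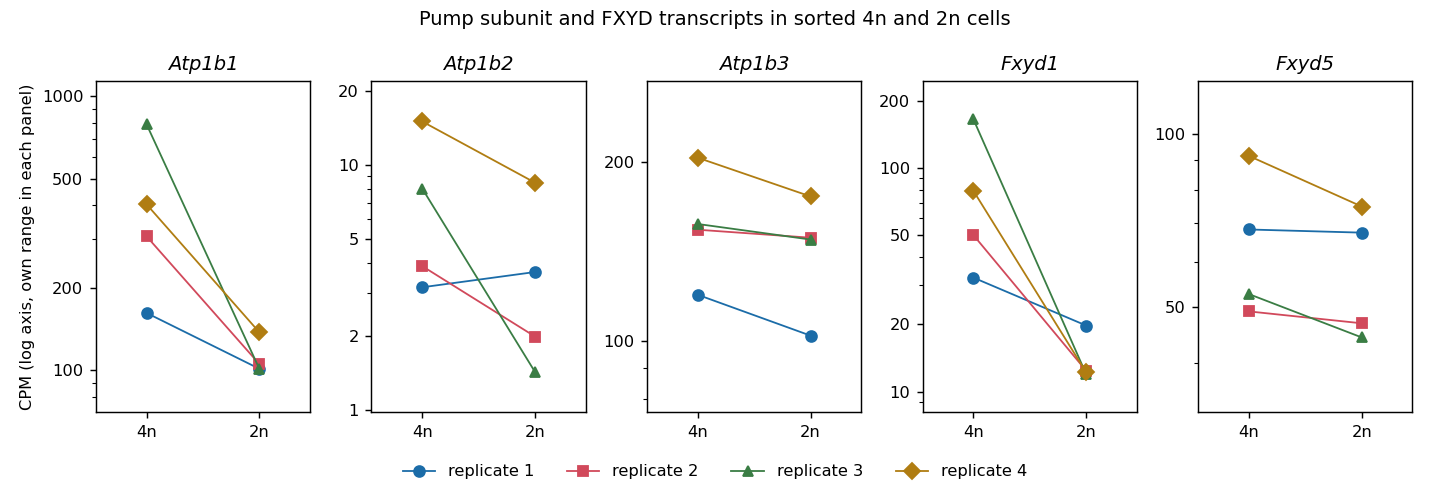
CPM of the 5 genes on log axes, with 4n libraries at the left and 2n libraries at the right of each panel, each point a library and each line joining libraries of the same replicate number. Atp1b1 and Fxyd1 have every 4n point above every 2n point, Atp1b3 and Fxyd5 keep nearly level lines at heights that differ by replicate number, and Atp1b2 has its highest point of each fraction in replicate 4.

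Fxyd1, the phospholemman gene, lies on chromosome 1 from 89484199 to 89488223. It stood at 32.3, 50.1, 165 and 79.0 CPM in 4n replicates 1 to 4. In 2n replicates 1 to 4 it stood at 19.8, 12.4, 12.0 and 12.2 CPM. The groups did not overlap, and 2n replicate 1 was apart from the other 2n libraries. The mean was 81.6 ± 58.9 CPM in 4n and 14.1 ± 3.78 CPM in 2n (n = 4 each, ± SD). The log2 fold change was 2.54 ± 0.47 (SE), a 5.80-fold difference and the highest of the 5 genes. Within replicate numbers 1 to 4 the differences were 0.71, 2.00, 3.77 and 2.68 on the log2 CPM scale.

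Fxyd5 encodes dysadherin, an FXYD protein known from epithelial and tumour cells for lowering cell adhesion through E-cadherin. It lies on the same chromosome as Fxyd1, from 89464860 to 89474252. It stood at 68.2, 49.2, 52.7 and 91.5 CPM in 4n replicates 1 to 4. The 2n replicates 1 to 4 had 67.4, 46.9, 44.4 and 74.8 CPM. Replicates 1 and 4 were high and replicates 2 and 3 low in both fractions. The log2 fold change was 0.16 ± 0.24 (SE), with differences of 0.02, 0.07, 0.25 and 0.29 within replicate numbers, and it turned to -0.06 with unscaled library sizes. Without 4n replicate 4 it was -0.04 in the fit that leaves the pairing out, with 2n replicate 4, the highest 2n library, kept. With the replicate number as a block and without both libraries of replicate 4 it was 0.11.

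Of the 5 genes, 2 had every 4n library above every 2n library and 0 had every 4n library below. Among all 12983 tested genes these shares were 7.68% and 3.69%. The 5 were chosen on this comparison, so nothing follows from the count. Their log2 fold changes ranged from 0.14 to 2.54, and the median of all tested genes was -0.01.

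The 5 genes differed in what their level went with. In a split of the variation of log2 CPM over the 8 libraries, the ploidy fraction took 66.8% for Atp1b1 and 75.7% for Fxyd1, and the replicate number took 17.4% and 6.55%. For Atp1b3 and Fxyd5 it was the other way round: the fraction took 6.27% and 5.08%, and the replicate number took 91.8% and 92.1%. Atp1b2 lay between, with 22.6% for the fraction and 57.3% for the replicate number. The medians over all 12983 tested genes were 17.1% and 56.1%. These shares describe 8 libraries and carry no test.

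**Figure D2:**
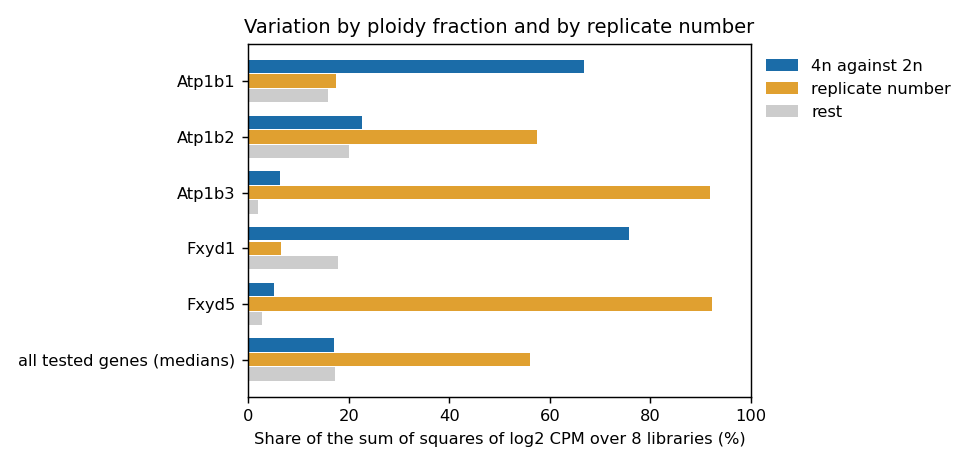
Share of the sum of squares of log2 CPM, in percent, that went with the 4n against 2n difference, with the replicate number and with neither, for each of the 5 genes and as medians over all tested genes. Fraction bars lead for Atp1b1 (66.8%) and Fxyd1 (75.7%), and replicate number bars for Atp1b3 (91.8%) and Fxyd5 (92.1%).

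The spread among 4n libraries had an order that Atp1b1 and Fxyd1 shared with the cardiomyocyte markers. It was not particular to them, since Slc8a1, Slc12a7, Prkaca, Ank3 and Adora1, described below, had the same order. The summed markers stood at 4121, 7919, 30317 and 11076 CPM in 4n replicates 1 to 4, and for both genes, too, replicate 3 was the highest, followed by replicates 4, 2 and 1. Within replicate numbers 1 to 4 the median marker difference was 2.28, 4.61, 5.53 and 3.65 on the log2 CPM scale, above that of either gene in every pair. Atp1b2, Atp1b3 and Fxyd5 had replicate 4 as their highest 4n library. For Atp1b2 and Atp1b3 replicates 3, 2 and 1 followed, which was also the order of the summed endothelial markers. The part of the cardiomyocyte, endothelial and mitochondrial differences in the values of these genes was not tested.

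**Figure D3:**
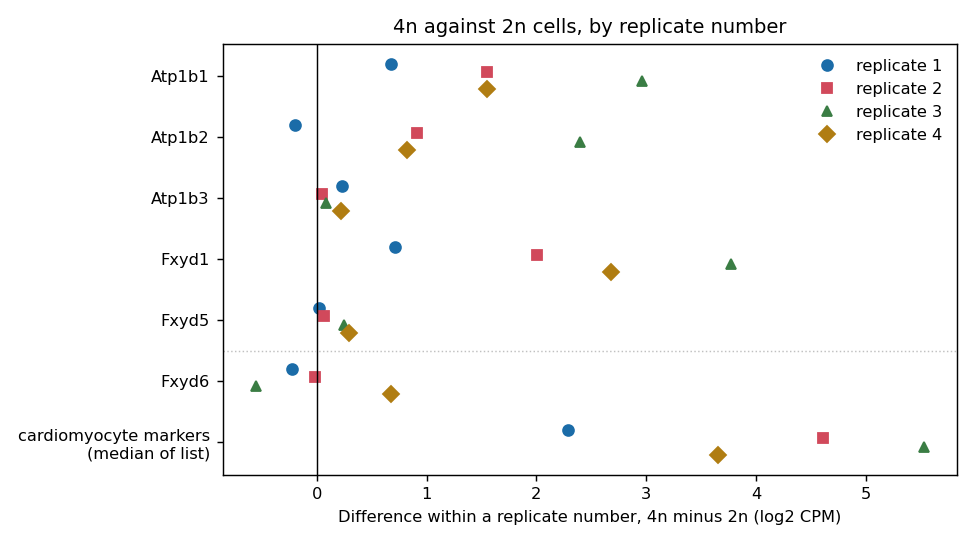
Difference of log2 CPM, 4n minus 2n, within each replicate number, for the 5 genes above the dotted line, and below it for Fxyd6 and the median of the cardiomyocyte markers. Replicate 3 has the highest difference and replicate 1 the lowest for Atp1b1 (2.96 and 0.68), Fxyd1 (3.77 and 0.71) and the marker median (5.53 and 2.28). The same holds for Atp1b2 (2.39 and -0.20).

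Levels of different genes were compared on the FPKM scale, which divides by gene length as well as by total counts. On it the beta transcripts had a different make-up in the fractions. Atp1b1 made up 43.5%, 53.2%, 73.7% and 52.3% of the summed beta FPKM in 4n replicates 1 to 4. It made up 35.9%, 28.8%, 28.2% and 30.6% in 2n replicates 1 to 4. The ranges did not overlap. The mean share was 55.7% ± 12.8 in 4n and 30.9% ± 3.51 in 2n (n = 4 each, ± SD). Atp1b3 made up nearly all of the rest, 43.2% ± 12.7 in 4n and 68.1% ± 3.94 in 2n (n = 4 each, ± SD). Atp1b2 made up 0.70% to 2.04% in 4n and 0.417% to 1.97% in 2n libraries. Atp1b1 exceeded Atp1b3 in 4n replicates 2, 3 and 4, whereas in 4n replicate 1 and in every 2n library Atp1b3 was the higher. As shares within a library, these values do not depend on how library sizes are scaled.

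**Figure D4:**
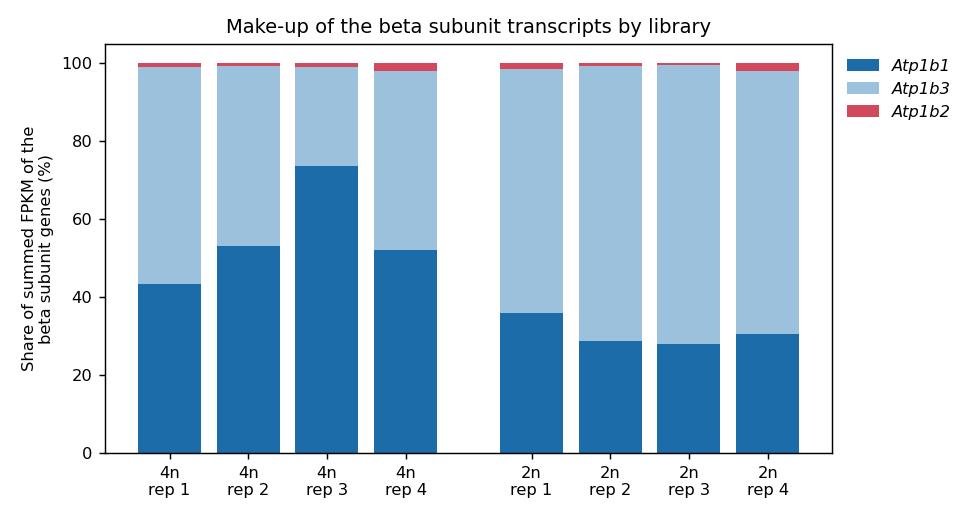
Share of the summed FPKM of Atp1b1, Atp1b2 and Atp1b3 taken by each gene, in percent, in the 4n libraries at the left and the 2n libraries at the right. Atp1b1 takes 43.5% to 73.7% in 4n and 28.2% to 35.9% in 2n libraries, and Atp1b2 is a thin band at the top of each bar.

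The order of mean FPKM levels in 4n cells was Fxyd1 (134 ± 85.95), Atp1b1 (116 ± 65.2), Atp1b3 (79.4 ± 13.6), Fxyd5 (57.5 ± 19.6) and Atp1b2 (2.24 ± 1.57) (SD, n = 4). Among the first 4, the ranges of mean ± SD of neighbours in this order overlapped. In 2n cells the order was Atp1b3 (85.7 ± 17.1), Fxyd5 (59.9 ± 15.5), Atp1b1 (38.4 ± 5.77), Fxyd1 (28.8 ± 8.22) and Atp1b2 (1.403 ± 1.14) (SD, n = 4). There these ranges overlapped for Atp1b3 and Fxyd5 and for Atp1b1 and Fxyd1, while those of Fxyd5 and Atp1b1 came close without overlapping. By mean, Fxyd1 thus headed the order in 4n cells and stood below all but Atp1b2 in 2n cells. By library it was the highest of the 5 in 4n replicates 3 and 4 only. It was below Atp1b1 in 4n replicate 2, and below Atp1b3 and Fxyd5 in 4n replicate 1. In 2n replicate 1 it was above Atp1b1 (41.1 against 35.6 FPKM). On this scale Atp1b3 was higher in the 4n library in 1 of 4 replicate numbers, against 4 of 4 on the CPM scale.

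Among FXYD genes with more than a few counts were Fxyd1, Fxyd5 and Fxyd6, whose product is best known from the nervous system. Fxyd1 took 41.6%, 57.3%, 81.5% and 56.1% of their summed FPKM in 4n replicates 1 to 4. It took 29.6%, 25.5%, 23.8% and 20.4% in 2n replicates 1 to 4, all below the 4n libraries. Fxyd5 took 29.5% ± 12.8 in 4n and 51.7% ± 7.98 in 2n (n = 4 each, ± SD). Fxyd6 itself had 74.9 ± 13.6 CPM in 4n and 76.8 ± 14.7 CPM in 2n (n = 4 each, ± SD) and did not pass (edgeR adjusted p = 0.936), its log2 fold change being -0.04 ± 0.17 (SE).

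Of the other genes of the pump's beta and FXYD families, beta4 (Atp1b4), Fxyd2, Fxyd3 and Fxyd7 had 0 to 15 counts per library, and Fxyd4 was at 0 throughout. These were too few for a test, so Fxyd6 was the only one of the 6 tested.

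A list of 19 genes held carriers that move sodium, potassium or calcium beside the pump and Slc9a3r1, whose product NHERF1 is a scaffold for membrane proteins and moves no ion. Of these, 18 were in the table and 12 were tested. Of the 12, 2 rose in 4n, against 2.67% of all genes tested, and the median log2 fold change was 0.08, against -0.01 over all genes. Atp12a, the catalytic subunit of the non-gastric proton-potassium pump, had 3.20 ± 2.99 CPM in 4n and 0.114 ± 0.141 CPM in 2n (mean ± SD of 4 libraries each), a difference of 4.72 ± 0.95 on the log2 scale (SE) at an edgeR adjusted p of 0.0364. Its 2n libraries had 0 to 6 counts, so it passed the filter on low counts only through its 4n libraries. The count of 2 therefore rests in part on that filter. Slc12a7, a potassium-chloride cotransporter, had 107 ± 56.9 CPM in 4n and 37.9 ± 3.82 CPM in 2n (mean ± SD of 4 libraries each), a difference of 1.49 ± 0.32 on the log2 scale (SE) at an edgeR adjusted p of 0.0466. With the replicate block Slc12a7 no longer passed (edgeR adjusted p = 0.0518), nor did it with total count scaling or no filter on low counts. Both calls were lost with limma-voom, with limma on FPKM, with the block without pair 2 or 4 and on leaving out 4n replicate 4 or any 2n replicate, Atp12a also without 4n replicate 2 or 3. Slc8a1, the sodium-calcium exchanger of heart muscle, had 173 ± 104 CPM in 4n and 81.5 ± 16.4 CPM in 2n (n = 4 each, ± SD) and, at 1.08 ± 0.37 on the log2 scale (SE), did not pass (edgeR adjusted p = 0.178). None of the 12 was called lower in edgeR, against 0.0077% of all genes, or in DESeq2. At an unadjusted p under 0.05 in edgeR, 3 were higher and 2 lower, against 12.6% and 4.82% of all genes.

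Among 18 kinases, anchors and partners of the pump, 15 were tested and 1 rose in 4n, against 2.67% of all genes tested. This was Adora1, the adenosine A1 receptor, which lowers cyclic AMP and so acts against protein kinase A. It had 5.89 ± 5.12 CPM in 4n and 0.306 ± 0.139 CPM in 2n (mean ± SD of 4 libraries each), a difference of 4.24 ± 0.75 on the log2 scale (SE) at an edgeR adjusted p of 0.0258. These values rest on 29 to 177 counts in 4n and only 4 to 10 counts in 2n libraries. Adora1, too, thus passed the filter on low counts only through its 4n libraries. The call was lost with limma-voom (adjusted p = 0.157), in edgeR without 4n replicate 4 or any 2n replicate, and with the block without pair 2 or 4. Prkaca, a catalytic subunit of protein kinase A, which phosphorylates phospholemman, had 120 ± 56.7 CPM in 4n and 56.0 ± 6.20 CPM in 2n (n = 4 each, ± SD) and did not pass (edgeR adjusted p = 0.0794). Prkacb, another catalytic subunit of that kinase, was level, at 17.8 ± 1.93 CPM in 4n and 17.7 ± 1.86 CPM in 2n (n = 4 each, ± SD). Ppp1r1a, an inhibitor of the phosphatase PP1, had 1.73 ± 0.977 CPM in 4n and 0.358 ± 0.151 CPM in 2n (n = 4 each, ± SD). It did not pass (edgeR adjusted p = 0.0801), but did with the replicate block (edgeR adjusted p = 0.0436), on 8 to 38 counts in 4n and 5 to 11 counts in 2n libraries. The median log2 fold change of the 15 was -0.04, and 0 were called lower in edgeR or DESeq2. At an unadjusted p under 0.05 in edgeR, 4 were higher and 0 lower, against the 12.6% and 4.82% of all genes. With the replicate block 2 of the 15 were called higher, against 4.27% of all genes, and 0 lower, against 0.608%.

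Profiles over the 8 libraries were compared by the root mean square difference of log2 CPM, each gene centred on its own mean. Among 9819 genes with a symbol and at least 5 CPM in a fraction, those nearest to Atp1b1 were Adamtsl2, Abtb2 and Ucp2, at 0.11, 0.12 and 0.12. Those nearest to Fxyd1 were Hspb7, Cacna2d2 and Mgst3, at 0.24, 0.24 and 0.25. The distance between Atp1b1 and Fxyd1 themselves was 0.43, the shortest that either had to another of the 5. In the ranking of all these genes Fxyd1 came at rank 193 for Atp1b1, and Atp1b1 at rank 63 for Fxyd1.

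For Atp1b3 the nearest genes were Mfge8, Grk5 and Cables2, at 0.08, 0.08 and 0.09. Trib1, Fhdc1 and Spsb1 were nearest to Fxyd5, at 0.06, 0.12 and 0.12, and Trib1 had 31.9 CPM in 4n and 28.8 CPM in 2n (means, n = 4 each). For the sparser Atp1b2 the nearest genes included Tmem176b and Tbx3, at 0.30 and 0.32. Atp1b3 and Fxyd5 lay 0.40 apart, at rank 5096 for Atp1b3 and rank 2977 for Fxyd5, and each was farther still from Fxyd1.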

How the data were processed

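Messenger RNA of 8 libraries of sorted cells, 4 of 4n and 4 of 2n, was sequenced. The aligner was HISAT2 2.0.4 and the build Rnor_6.0, per the submitters' processing notes. How reads were assigned to genes, and whether by strand, is not given in the sources used here. As organism, the labels name Rattus rattus, while that build is of Rattus norvegicus. The deposited table gives, per the file headers, raw counts and FPKM values for each gene. The deposited FPKM equal the counts over a fixed length for each gene and over the total count of the library.

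Tests on counts used edgeR 4.0.16 (R 4.3.3; filterByExpr, TMM scaling, robust quasi-likelihood fit with the fraction as factor), two-sided, with Benjamini-Hochberg adjustment over 12983 genes and a threshold of 0.05. Each SE is the log2 fold change over the root of its F statistic. CPM use TMM-scaled library sizes, and log2 CPM a prior count of 2. Libraries summed to between 14783521 and 21033772, and counting error weighs most on Atp1b2, Atp12a, Adora1, Ppp1r1a and the scarce FXYD genes.

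Deviations from the group means correlated at 0.43, 0.58, 0.27 and 0.65 within replicate numbers 1 to 4, and the library descriptions of a number share a code. Samples with the same number were therefore taken as pairs in the fit with the replicate block. Values not said to come from it are from the fit above, which leaves the number out. No 2 libraries of a fraction agreed within sampling noise (chi-square per degree of freedom from 34.9 to 396). P-values of the main fit measure the spread between libraries within a fraction and leave the pairing by number out. Those of the fit with the block measure the spread of the differences within replicate numbers. The cultures are described as independent experiments.

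The 5 genes and all gene lists were chosen with earlier results of these data known. Named genes are the 5, the list genes that passed, the measured FXYD genes, and for each of the 5 the 3 nearest profiles. Slc8a1, Prkaca, Prkacb, Ppp1r1a, Ank2 and Ank3 were added after their values were seen. Some genes within this rule, and their values, were left out and are not reported here. Alternatives were other scalings, no filter, the replicate block, DESeq2 1.42.0, limma-voom (limma 3.58.1), limma on log2(FPKM + 0.1), and leaving out each library or pair.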

Additional observations from a re-analysis of the deposited data

Results flagged for a closer look

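Atp1b1 at 137.5 CPM in 2n replicate 4 stood apart from the other 2n libraries, which lay between 101 and 105 CPM. Fxyd1 at 19.75 CPM in 2n replicate 1 stood apart from the other 2n libraries, at 12.0 to 12.4 CPM. In each case the gap to the nearest library exceeded Dixon's 95% critical value of 0.829 times the range of the group. Among 18 groups examined, 2 were apart, where chance gives about 1 in 20.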

How the results depend on the processing

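The log2 fold changes of Atp1b1 and Fxyd1 were positive in all 20 alternatives, from 1.26 to 2.16 and from 1.81 to 2.81, as was that of Atp1b2, from 0.36 to 1.67. The Atp1b1 share of the beta transcripts differed by 18.8 to 28.9 percentage points on leaving out single libraries, and by 24.3 with CPM in place of FPKM. For Atp1b3, total count scaling gave -0.11 and limma on log2(FPKM + 0.1) gave -0.0996, and for Fxyd5 these gave -0.059 and -0.087, all reversed. Both scalings put the median of all genes near -0.25, so relative to it both genes stayed above. On leaving out single libraries, which breaks a pair, Atp1b3 ran from -0.00086 to 0.25 and Fxyd5 from -0.0404 to 0.305. On leaving out whole pairs with the block, Atp1b3 ran from 0.096 to 0.18 and Fxyd5 from 0.11 to 0.18. With the replicate block these 5 genes kept their direction, at 1.68 for Atp1b1, 0.98 for Atp1b2, 0.14 for Atp1b3, 2.31 for Fxyd1 and 0.16 for Fxyd5.

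Counts of calls in edgeR moved widely, and the cause was not tested. In the main analysis 347 genes were higher and 1 lower. With the replicate block 554 were higher and 79 lower, with DESeq2 860 and 93, and with limma-voom 0 and 0 (1456 and 691 at an unadjusted p under 0.05). Total count scaling gave 12 lower, leaving out mitochondrial genes 2 and limma on FPKM 15. Leaving out single libraries gave 0 to 870 higher and 0 to 90 lower, with 0 of either without 4n replicate 4 or any 1 of the 2n replicates and the most without 4n replicate 1. With the block and without pair 1, 2, 3 or 4, 1254, 0, 558 and 0 were higher and 399, 0, 50 and 0 lower.

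The 2 carriers called became 1 with total count scaling, with no filter and with the block, 0 with limma-voom and with limma on FPKM, and 0 to 4 without single libraries. With the block and without pair 1, 2 or 4 they were 4, 0 and 0. The 1 regulator called became 2 with total count scaling and with the block, 4 with DESeq2, 0 with limma-voom, and 0 to 5 without single libraries. With the block and without pair 1, 2, 3 or 4 it was 5, 0, 2 and 0. Depth limited Atp1b2, Ppp1r1a, and the 2n values of Atp12a and Adora1, which rest on at most 6 and 10 counts per library.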

Other observations

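Fxyd5, Fxyd7, Fxyd1 and Fxyd3 lie in this order on chromosome 1 in Rnor_6.0. Fxyd7 starts 348 bases after the end of Fxyd5 and ends 210 bases before the start of Fxyd1. Between these neighbours with 662 to 1580 and 226 to 2307 counts per library, Fxyd7 had 0, 3, 15 and 14 counts in 4n replicates 1 to 4 and 4, 2, 1 and 7 counts in 2n replicates 1 to 4. The 2 abundant genes of this locus had log2 fold changes of 0.16 for Fxyd5 and 2.54 for Fxyd1.

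Ank3, which encodes ankyrin-G, an anchor of membrane proteins, had 62.6 ± 45.2 CPM in 4n and 15.5 ± 3.67 CPM in 2n (SD, n = 4 each). Every 4n library was above every 2n library, yet its log2 fold change of 2.01 ± 0.45 (SE) fell just short (edgeR adjusted p = 0.0505). Ank2, which encodes ankyrin-B, a known anchor of the pump in heart muscle, had 45.8 ± 14.7 CPM in 4n and 58.1 ± 7.68 CPM in 2n (SD, n = 4 each; edgeR adjusted p = 0.491).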
